A study of Homo sapiens with 6 samples.

Results

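The AKR1 genes encode aldo-keto reductases, and 6 of them (AKR1A1, AKR1B1, AKR1B10, AKR1C1, AKR1C2 and AKR1C3) were taken by gene symbol from the 16279 genes of the RNA sequencing of 12Z cells. 12Z is an established human cell line of endometriotic epithelial cells. The NC group (Non-treatment, 3 biological replicates) was left untreated. The rhChemerin group (3 biological replicates) received recombinant human chemerin (rhChem157S, an active form of this secreted adipokine) at 10 ng/mL for 48 h. The cell line is shared by both groups, so every library represents 1 line in culture and no tissue. The comparison asks how chemerin treatment moves the transcript levels of these enzymes.

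Aldo-keto reductases are soluble monomeric enzymes that use NADPH to reduce carbonyl groups to alcohols. AKR1A1 is aldehyde reductase and AKR1B1 is aldose reductase, which turns glucose into sorbitol in the polyol pathway and can also make prostaglandin F. AKR1B10 reduces retinaldehyde and other aldehydes. The AKR1C enzymes are ketosteroid reductases that act before the steroid receptors: AKR1C1 inactivates progesterone, AKR1C2 inactivates dihydrotestosterone, and AKR1C3 makes testosterone and estradiol from their weaker precursors and also makes prostaglandin F. Progesterone, estradiol and prostaglandins all act on the endometrium, and local enzymes set how much of each active form its cells meet.

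AKR1C1, AKR1C2 and AKR1C3 lie side by side on chromosome 10 (GENCODE release 29 on GRCh38). AKR1C1 is on the plus strand at chr10:4963253-4983283. AKR1C2 is on the minus strand at chr10:4987400-5018031, with 4116 bases between them. AKR1C3 follows on the plus strand at chr10:5035354-5107686, after a gap of 17322 bases. AKR1B1 at chr7:134442350-134459284 (minus strand) and AKR1B10 at chr7:134527592-134541408 (plus strand) are neighbours on chromosome 7, with 68307 bases between them, and AKR1A1 is at chr1:45550543-45570049 (plus strand). No exon of the 6 genes overlaps an exon of another annotated gene on either strand.

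The sequences of the AKR1C genes are shown first because they decide how well reads can be told apart. Over the 972 coding bases, AKR1C1 and AKR1C2 were 98.0% identical (19 differing bases). AKR1C3 was 91.5% identical to AKR1C1 and 91.0% to AKR1C2. AKR1B1 and AKR1B10 shared 77.1% of 945 aligned coding bases. The first 90 coding bases of the AKR1C genes, read from the GENCODE transcripts, are printed 5′ to 3′ with a base in capitals where the 3 genes do not all have the same one.
AKR1C1: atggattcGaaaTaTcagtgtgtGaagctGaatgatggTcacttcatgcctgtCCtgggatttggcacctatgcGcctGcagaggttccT
AKR1C2: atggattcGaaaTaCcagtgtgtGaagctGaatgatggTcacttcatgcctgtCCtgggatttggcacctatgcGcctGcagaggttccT
AKR1C3: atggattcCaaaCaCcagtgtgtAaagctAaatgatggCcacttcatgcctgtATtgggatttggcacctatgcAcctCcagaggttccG
AKR1C1 and AKR1C2 differed at 1 of these bases, and AKR1C3 differed from AKR1C1 at 11. Of all distinct stretches of 150 bases in the AKR1C1 transcripts, 10% occurred unchanged in an AKR1C2 transcript. Of those of AKR1C2, 13.7% occurred in AKR1C1 or AKR1C3, and of those of AKR1C3, 0.444% occurred in AKR1C2. None of the stretches of AKR1A1, AKR1B1 and AKR1B10 was shared with another gene. Counts of AKR1C1 and AKR1C2 are therefore uncertain as single values, and both were also added together for the comparison. AKR1C3 and AKR1B10 are little affected at this length, although at 75 bases 2.87% and 6.07% of their stretches were shared.

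The AKR1C promoters are shown because the groups were apart for AKR1C3 and overlapped for its neighbours. The windows of 300 bases around the RefSeq start sites (GRCh38.p14) held an entry for 5 of the 6 genes (none for AKR1B10), in 7 windows. The capitals mark matches to CCAAT and TATAAA on either strand.
AKR1C1, chr10:4963165-4963464, plus strand: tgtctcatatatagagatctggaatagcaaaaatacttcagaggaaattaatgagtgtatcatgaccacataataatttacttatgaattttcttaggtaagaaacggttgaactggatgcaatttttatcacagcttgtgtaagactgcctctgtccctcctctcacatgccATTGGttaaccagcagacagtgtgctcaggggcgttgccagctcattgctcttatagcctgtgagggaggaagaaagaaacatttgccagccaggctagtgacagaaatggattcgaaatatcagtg
AKR1C2, chr10:5003808-5004107, minus strand: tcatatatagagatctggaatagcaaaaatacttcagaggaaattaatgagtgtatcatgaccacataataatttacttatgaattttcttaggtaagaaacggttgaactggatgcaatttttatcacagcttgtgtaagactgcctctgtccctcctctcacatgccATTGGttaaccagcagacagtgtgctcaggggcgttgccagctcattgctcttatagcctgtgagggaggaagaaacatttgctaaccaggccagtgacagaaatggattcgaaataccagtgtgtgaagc
AKR1C3, chr10:5048531-5048830, plus strand: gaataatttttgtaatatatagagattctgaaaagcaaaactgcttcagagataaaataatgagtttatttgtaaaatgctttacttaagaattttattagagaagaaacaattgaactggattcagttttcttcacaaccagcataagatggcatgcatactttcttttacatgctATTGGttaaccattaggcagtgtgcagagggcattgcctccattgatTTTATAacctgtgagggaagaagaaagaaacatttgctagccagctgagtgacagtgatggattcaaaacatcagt
AKR1C3, chr10:5094164-5094463, plus strand: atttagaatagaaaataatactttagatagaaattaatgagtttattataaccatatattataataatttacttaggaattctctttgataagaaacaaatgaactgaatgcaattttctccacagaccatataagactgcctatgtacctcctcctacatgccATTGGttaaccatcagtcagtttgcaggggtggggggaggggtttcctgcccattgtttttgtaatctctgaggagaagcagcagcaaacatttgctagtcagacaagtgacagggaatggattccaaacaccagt
The AKR1C1 and AKR1C2 windows were identical at 98.6% of 292 aligned bases. The upstream AKR1C3 window was identical to that of AKR1C1 at 80.9% of 288 aligned bases, and the downstream one at 79.9% of 283. All 4 AKR1C windows hold CCAAT on the opposite strand, starting 77 (AKR1C1), 81 (AKR1C2), 73 and 86 (AKR1C3) bases before the start site. Of 35116 promoter windows of this length, 34.6% hold CCAAT on either strand. The upstream AKR1C3 window also holds TATAAA on the opposite strand, a motif of 11.5% of all windows. The motifs TGACNNNGC, the antioxidant response element (13.3% of all windows), and TGANTCA, the AP-1 site (7.71%), matched in none of the 7 windows. These are letter matches in short windows and the assay measured no binding.

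The libraries held from 35430881 to 38341643 counts on genes. The third rhChemerin library stood apart, with a mean correlation of log2 CPM across genes of 0.959 with the others, against 0.977 to 0.979 for the other 5, so that values without it are given below. Marker RNA was in part at odds with the epithelial label, which the paper rests on protein. Its immunoblots detected E-cadherin (the product of CDH1), MUC1, PAX2, both estrogen receptors and the progesterone receptor. The values here are RNA, and no protein was measured in these libraries. KRT8, KRT18 and KRT19, keratins of simple epithelia, averaged 868, 613 and 310 FPKM (counts scaled by gene length and library total). The epithelial markers MUC1, KRT7 and ELF3 averaged 10.3, 1.63 and 0.0819. The epithelial adhesion genes EPCAM (0.397) and CDH1 (0.219) were near 0, as were the epithelial splicing and transcription factors ESRP1 (0.0221) and GRHL2 (0.00619). Of 10 stromal markers 8 averaged at least 1 FPKM, with COL3A1 at 564 and LUM at 111, and IGFBP1 (0.00901) and PRL (0.00921) were near 0. Of the 5 immune markers in the table, CD68 (96.3) and CD14 (28.8) were above 1 FPKM and the pan-leukocyte gene PTPRC (0.026), LYZ (0.26) and CD79A (0.0822) were below it. Of 5 endothelial markers, KDR averaged 1.11 and PECAM1 (0.0176), VWF (0.261), CDH5 (0.108) and TEK (0.000912) less. The summed stromal markers ranged from 1610 to 2090 FPKM in NC and from 1140 to 2210 in rhChemerin, and the summed epithelial markers from 1600 to 1870 and from 1760 to 1980. ESR1, ESR2 and PGR, the receptors of estradiol and progesterone, averaged 0.0155, 0.0274 and 0.318 FPKM. In bulk RNA, fewer cells of a type and less RNA per cell cannot be told apart.

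AKR1 transcripts in 12Z cells were mostly those of 2 aldehyde reductases. AKR1A1 and AKR1B1 together made up 97.4% to 98.8% of the summed FPKM of the 6 genes in each library. In NC, the mean of AKR1B1 (80.7 FPKM) stood at percentile 94.6 of all tested genes and that of AKR1A1 (64.4 FPKM) at percentile 92.9. The ketosteroid reductases were far lower, at percentile 19.5 for AKR1C1, 18.3 for AKR1C3 and 2.77 for AKR1C2, and AKR1B10 stood at percentile 12.1. FPKM divides by gene length, so these levels can be set beside each other between genes. This does not correct for the sequence that AKR1C1 and AKR1C2 share, so their levels are less certain.

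The order of the levels was not fixed at the top. AKR1A1 was above AKR1B1 in the first NC library and the first and second rhChemerin libraries, and below it in the other 3. AKR1C1 was the third highest in 5 of the 6 libraries, and AKR1C3 took that place in the second NC library. AKR1B10 was next to last and AKR1C2 last in all 6 libraries. The summed FPKM of the family was 149, 146 and 151 in NC and 120, 101 and 86.0 in rhChemerin, with no overlap between the groups. This sum is almost entirely AKR1A1 and AKR1B1, and AKR1A1 by itself overlapped between the groups. FPKM is scaled by library total only. The TMM scaling factors of edgeR were 1.037, 1.054 and 1.047 in NC and 1, 0.9725 and 0.898 in rhChemerin. FPKM therefore places rhChemerin lower relative to NC than TMM scaling does. The part of scaling in the lower sum was not tested.

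**Figure D1:**
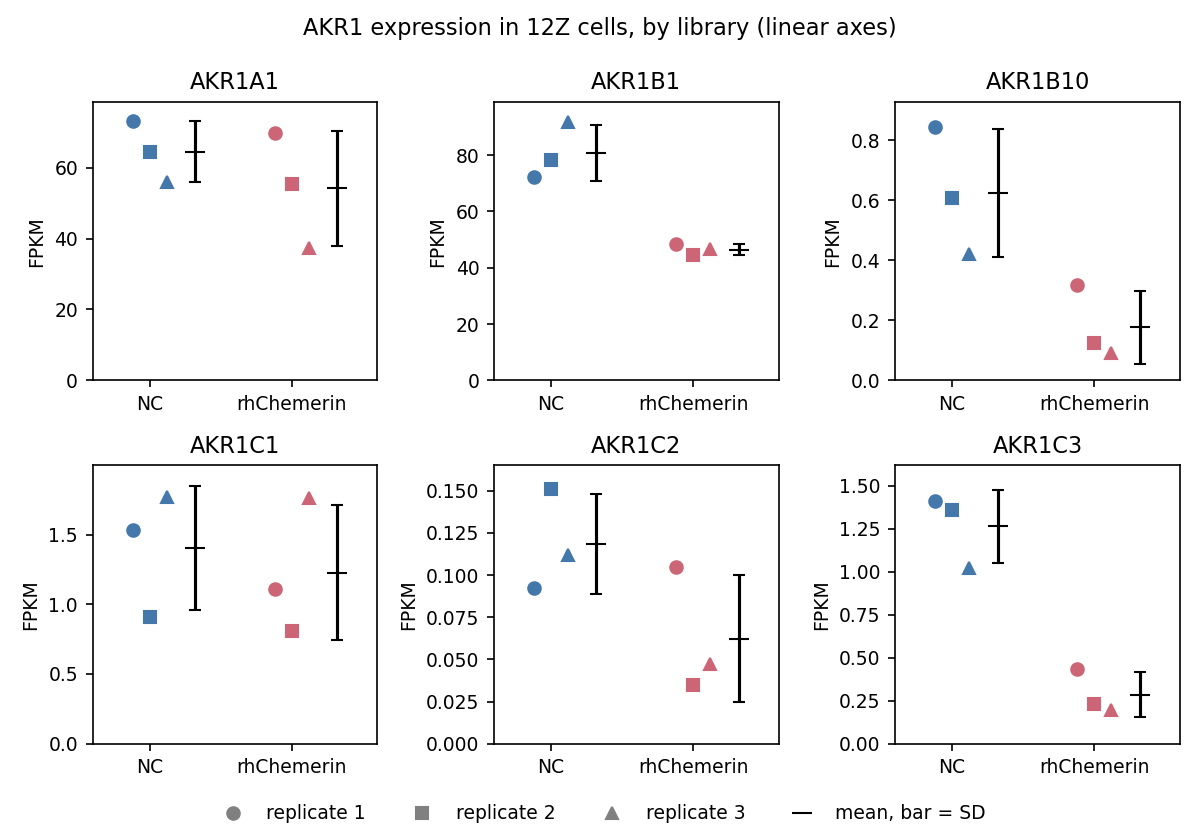
FPKM of each AKR1 gene in the 3 NC libraries (blue) and the 3 rhChemerin libraries (red), with the marker shape giving the replicate and the black bar the mean ± SD; each panel has its own linear axis from 0. The groups are apart for AKR1B1, AKR1B10 and AKR1C3 and overlap for AKR1A1, AKR1C1 and AKR1C2.

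With rhChemerin, AKR1C3, AKR1B10 and AKR1B1 were lower in all 3 libraries than in any NC library, while AKR1A1, AKR1C1 and AKR1C2 overlapped between the groups. AKR1C3 was 4.42-fold lower, AKR1B10 3.52-fold lower and AKR1B1 1.74-fold lower by mean FPKM. Groups without overlap in this direction were found for 16.0% of all tested genes, against 3 of 6 here. No member passed edgeR's quasi-likelihood test at an adjusted p under 0.05, where 4 of 13311 genes (0.0301%) passed it with a fold above 2. At an unadjusted p under 0.05, 3 of the 6 were lower, against 11.4% of all genes. With DESeq2, the tool the study used, 2 of the 6 (AKR1C3 and AKR1B10) had an adjusted p under 0.05 and a fold above 2, against 2.80% of 14066 genes in either direction and 2.26% in the lower direction. AKR1B1 passed on the adjusted p as well, making 3 of 6, against 5.47% of genes that were lower on that rule. Over all genes, this DESeq2 fit called 76 higher and 318 lower with rhChemerin. The paper used the same tool and thresholds and reports nearly the reverse proportion, with most of its called genes up-regulated. Every direction given here follows the group labels of the deposited columns. The reason for this difference was not tested. All 6 log2 fold changes were below 0, with a median of -0.73, against 0.01 and 48.3% below 0 over all tested genes.

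AKR1C3, the ketosteroid reductase that makes active androgens and estrogens and prostaglandin F, had the lowest log2 fold change of the family. Its FPKM was 1.41, 1.36 and 1.02 in NC and 0.433, 0.229 and 0.194 in rhChemerin, from 96, 96, 71, 32, 16 and 14 counts. The highest treated library was well below the lowest untreated one. The means were 1.26 ± 0.209 and 0.285 ± 0.129 FPKM (SD, n = 3 each). The log2 fold change was -2.02 (SE 0.39, 95% interval -2.94 to -1.10, adjusted p = 0.0752 with edgeR), and DESeq2 gave -2.03 with an adjusted p of 0.000223. By log2 fold change it was the 90th lowest of 13311 genes.

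AKR1B10, a retinaldehyde and aldehyde reductase, showed the same order of groups at a lower level. Its FPKM was 0.844, 0.608 and 0.420 in NC and 0.316, 0.125 and 0.0911 in rhChemerin. These rest on 79, 59 and 40 counts in NC and 32, 12 and 9 in rhChemerin. The groups did not overlap, but the lowest NC library lay closer to the highest rhChemerin library than to the highest NC library. The means were 0.624 ± 0.212 and 0.177 ± 0.121 FPKM (SD, n = 3 each). The log2 fold change was -1.70 (SE 0.54, 95% interval -2.96 to -0.44, adjusted p = 0.142 with edgeR), and -1.71 with DESeq2 at an adjusted p of 0.0413. With DESeq2 the call was lost when any of 5 libraries was left out, at adjusted p from 0.0886 to 0.285, and kept without rhChemerin replicate 1.

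AKR1B1, aldose reductase, is abundant, so its counts are precise. Its FPKM was 72.2, 78.3 and 91.8 in NC and 48.3, 44.5 and 46.5 in rhChemerin, from 2397 to 4911 counts per library. The treated libraries lay close together and the untreated ones further apart. The means were 80.7 ± 10 and 46.4 ± 1.93 FPKM (SD, n = 3 each). The log2 fold change was -0.67 (SE 0.11, 95% interval -0.92 to -0.41, adjusted p = 0.0707 with edgeR), and DESeq2 gave -0.67 with an adjusted p of 7.2e-05. The fold is under the study's threshold of 2 in both tools. By p it ranked 69th of 13311 genes.

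AKR1A1, aldehyde reductase, overlapped between the groups. Its FPKM was 73.0, 64.4 and 55.8 in NC and 69.7, 55.3 and 37.4 in rhChemerin. The third rhChemerin library was the lowest and the first was above 2 of the NC libraries. The means were 64.4 ± 8.63 and 54.1 ± 16.1 FPKM (SD, n = 3 each). The log2 fold change was -0.14 (95% interval -0.58 to 0.31, adjusted p = 0.690 with edgeR), and without rhChemerin replicate 3 it was 0.036. The interval leaves room for changes of either sign.

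AKR1C1, which inactivates progesterone, spread as widely within the groups as between them. Its FPKM was 1.53, 0.911 and 1.77 in NC and 1.11, 0.811 and 1.76 in rhChemerin, from 95 to 213 counts. The means were 1.40 ± 0.444 and 1.23 ± 0.488 FPKM (SD, n = 3 each). The second library was the lowest in each group. The log2 fold change was -0.05 (SE 0.39, 95% interval -0.96 to 0.86, adjusted p = 0.954 with edgeR). This interval does not exclude a fold change of nearly 2 in either direction.

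AKR1C2, which inactivates dihydrotestosterone, was close to the limit of counting. Its FPKM was 0.0925, 0.151 and 0.112 in NC and 0.105, 0.0347 and 0.0472 in rhChemerin, from 13, 22, 16, 16, 5 and 7 counts. The first rhChemerin library lay within the NC range and the other two below it. The means were 0.118 ± 0.0298 and 0.0624 ± 0.0376 FPKM (SD, n = 3 each). The log2 fold change was -0.79 (SE 0.56, 95% interval -2.09 to 0.51, adjusted p = 0.413 with edgeR). With the counts of AKR1C1 and AKR1C2 added together, the log2 fold change was -0.10 (adjusted p = 0.879 with edgeR). This value does not depend on how counted reads were split between these copies. Any reads left uncounted because they matched both would be missing from the sum as well. The filter on low counts kept AKR1C2 and AKR1B10 through their NC libraries. They were not tested when at least 10 counts were required in every library.

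**Figure D2:**
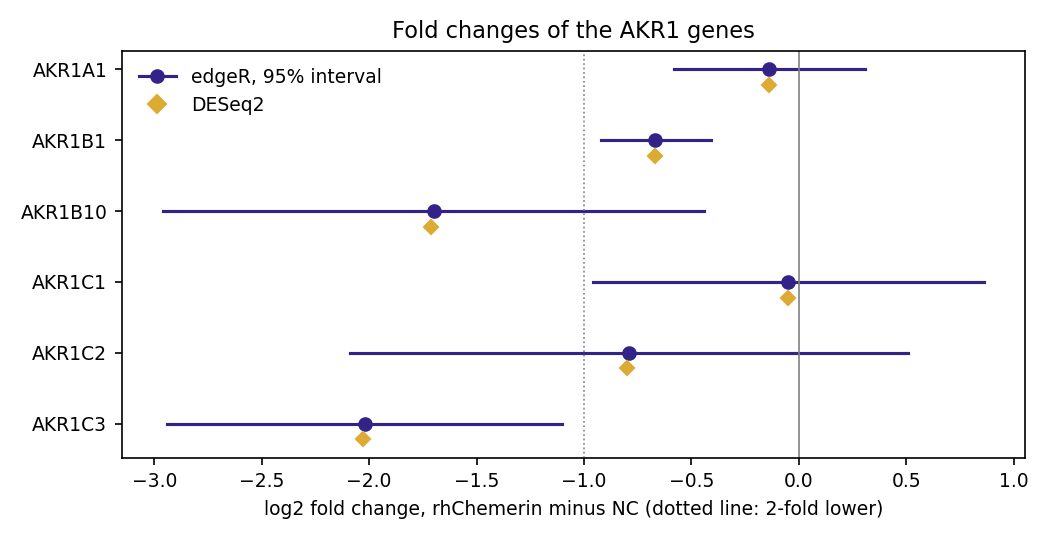
Log2 fold change of rhChemerin over NC for each AKR1 gene, with edgeR's estimate and 95% interval (circles and bars) and DESeq2's estimate (diamonds). The intervals of AKR1B1, AKR1B10 and AKR1C3 lie below 0 and the other 3 include it, before any adjustment for the number of genes.

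Genes of low abundance were on the whole lower with rhChemerin, and this bears on reading the weakly expressed members. Among the 1928 tested genes with a mean of 0.1 to 1 FPKM, where AKR1B10 and AKR1C3 lie, 71.6% were lower and the median log2 fold change was -0.36. Among the 352 genes below 0.1 FPKM, the class of AKR1C2, 69.9% were lower and the median was -0.46. For 1 to 10 FPKM, with AKR1C1, the median was -0.03, and for 10 to 100 FPKM, with AKR1A1 and AKR1B1, it was 0.08. The estimates for AKR1B10, AKR1C3 and AKR1C2 were lower than their class median, and that of AKR1B1 went against its class. The part of this trend in the results was not tested.

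Ratios within a library do not depend on how libraries are scaled. AKR1C3 made up 46.4%, 56.1% and 35.2% of the summed AKR1C FPKM in NC and 26.3%, 21.3% and 9.68% in rhChemerin. The log2 ratio of AKR1C3 to AKR1C1 was -0.12, 0.57 and -0.79 in NC and -1.35, -1.83 and -3.18 in rhChemerin. The groups did not overlap, and the means differed by -2.01 (p = 0.1 in an exact permutation test, two-sided, the lowest value possible with 3 against 3). The share and the ratio were lowest in the third rhChemerin library, and without it the means of the ratio differed by -1.48.

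The other ratios overlapped. The log2 ratio of AKR1B10 to AKR1B1 was -6.42, -7.01 and -7.77 in NC and -7.26, -8.47 and -9.00 in rhChemerin, and the means differed by -1.18 (exact two-sided permutation test, p = 0.2). The log2 ratio of AKR1C1 to AKR1C2 was 4.05, 2.59 and 3.98 in NC and 3.40, 4.55 and 5.22 in rhChemerin, and the means differed by 0.85 (exact two-sided permutation test, p = 0.4). Both differences were within the overlap of the libraries.

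**Figure D3:**
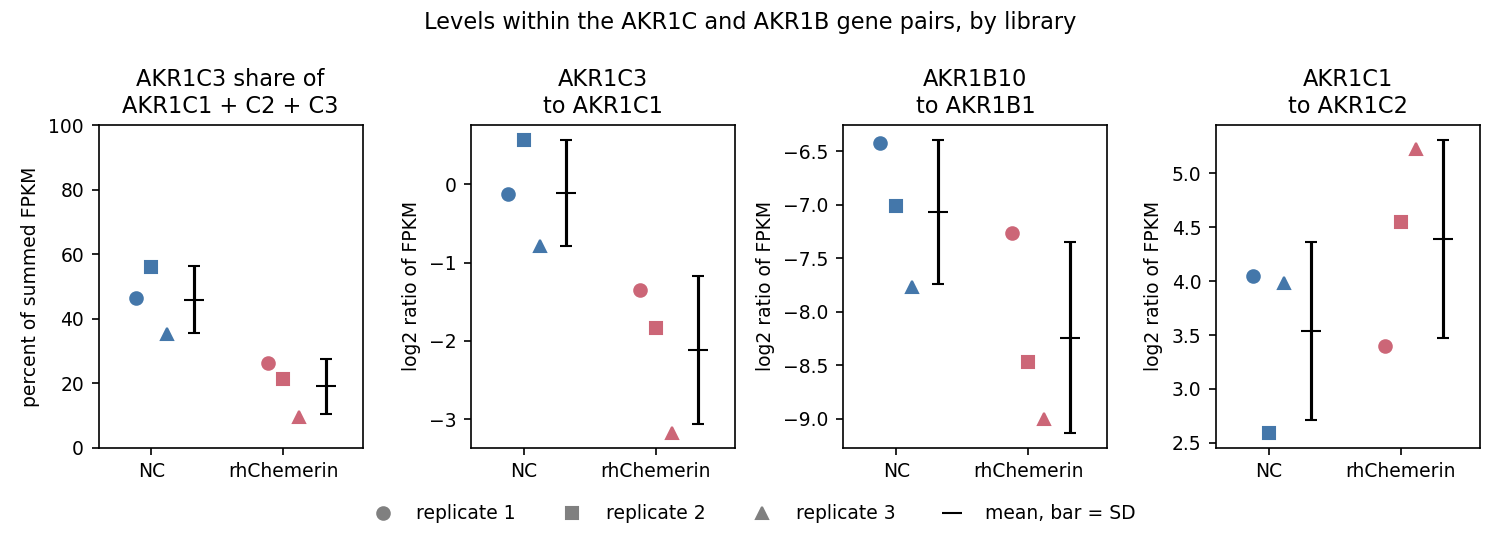
Share of AKR1C3 in the summed FPKM of AKR1C1, AKR1C2 and AKR1C3 (left) and log2 ratios of FPKM within each library for 3 gene pairs, by group, with the marker shape giving the replicate and the black bar the mean ± SD. The AKR1C3 share and the AKR1C3 to AKR1C1 ratio separate the groups, and the other ratios overlap.

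How far the estimates rest on single libraries differed between the genes. With DESeq2, AKR1C3 kept an adjusted p of 2.06e-05 to 0.0285 and AKR1B1 of 1.02e-06 to 0.0083 whichever library was left out, and their log2 fold changes stayed within -2.42 to -1.84 and -0.74 to -0.57. With edgeR, leaving out rhChemerin replicate 1 brought AKR1C3 to an adjusted p of 0.0328, AKR1B10 to 0.0469 and AKR1B1 to 0.0402. Leaving out rhChemerin replicate 3, the library that stood apart, gave AKR1B1 an adjusted p of 0.0320 with edgeR, AKR1C3 0.0591 and AKR1B10 0.159. Leaving out any NC library or rhChemerin replicate 2 gave adjusted p of at least 0.181 for all 3 genes with edgeR.

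**Figure D4:**
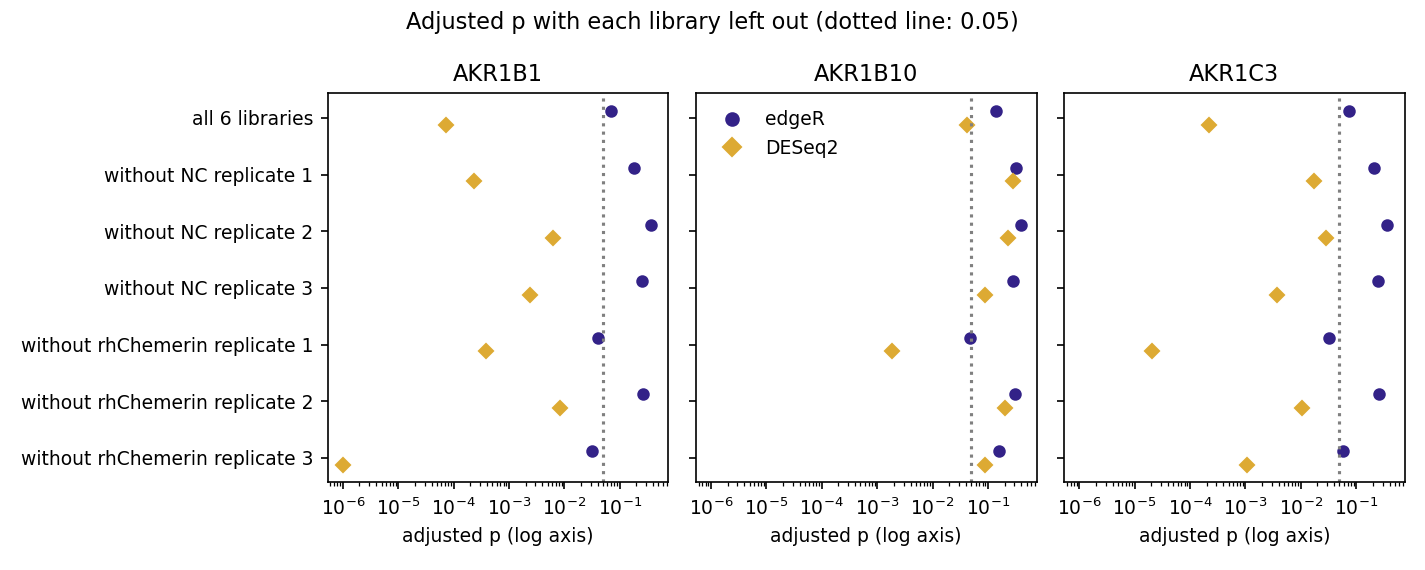
Adjusted p (log axis) of AKR1B1, AKR1B10 and AKR1C3 with all 6 libraries and with each library left out, for edgeR (circles) and DESeq2 (diamonds); the dotted line is 0.05. AKR1B1 and AKR1C3 stay left of the line with DESeq2 in every row, and AKR1B10 does so with all libraries and without rhChemerin replicate 1.

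The other aldo-keto reductases of the table gave no call. Of 6 tested, 2 were higher and 4 lower, with a median log2 fold change of -0.33. AKR1E2, which neighbours the AKR1C cluster, was at 0.156, 0.0750 and 0.0765 FPKM in NC and 0.0288, 0.0507 and 0.00492 in rhChemerin, a log2 fold change of -1.74 (adjusted p = 0.215 with edgeR). These values rest on 30, 15 and 15 counts in NC and 6, 10 and 1 in rhChemerin. The filter on low counts kept AKR1E2 through its NC libraries. KCNAB2, a potassium channel subunit of the same fold, had a log2 fold change of -0.49 (adjusted p = 0.216). AKR1B15, the copy nearest to AKR1B10, had at most 5 counts in a library and was not tested.

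Other enzymes that share substrates with the AKR1C enzymes gave no call. Of 21 tested steroid and carbonyl reductases of other families, 6 were higher and 15 lower (median log2 fold change -0.19). HSD17B10, a mitochondrial dehydrogenase, was at 0.40 (adjusted p = 0.123 with edgeR), CBR1, a carbonyl reductase, at 0.16, HSD17B4, of peroxisomal fatty acid oxidation, at -0.34, and DCXR, a sugar and carbonyl reductase, at -0.31. Of 11 prostaglandin enzymes, 4 were higher and 7 lower (median -0.06) without a call. PTGIS, prostacyclin synthase, was at 40.0, 27.6 and 29.7 FPKM in NC and 25.5, 15.1 and 7.90 in rhChemerin (log2 fold change -0.90, adjusted p = 0.194 with edgeR). PTGES, an inducible prostaglandin E synthase, was at -0.46, and PTGES3, a cytosolic one and Hsp90 co-chaperone, at 0.34. With DESeq2, PTGES3 and HSD17B10 had an adjusted p of 0.039 and 0.0402 at these folds below 2. Of 9 prostaglandin receptors and transporters, 6 were higher and 3 lower (median 0.18), and none separated the groups.

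The lists around AKR1B1 and AKR1B10 held 1 gene called by DESeq2, which called 2.80% of 14066 genes over all. Of 12 genes of the polyol pathway and aldehyde clearance, 4 were higher and 8 lower (median -0.11). ALDH3A1, an aldehyde dehydrogenase that clears fatty aldehydes, was at 0.171, 0.165 and 0.299 FPKM in NC and 0.0175, 0 and 0.00899 in rhChemerin. Its log2 fold change was -4.27 (adjusted p = 0.0752 with edgeR), and DESeq2 called it lower with an adjusted p of 0.00336. These values rest on 18, 18 and 32 counts in NC and 2, 0 and 1 in rhChemerin. The filter on low counts kept ALDH3A1 through its NC libraries. SORD, sorbitol dehydrogenase, the step after AKR1B1, was at 0.29 (adjusted p = 0.195 with edgeR), ALDH16A1 at 0.39 and HAGH, a glyoxalase, at -0.52. Of 13 retinaldehyde and retinoic acid genes, 2 were higher and 11 lower (median -0.27), with CYP26B1, which degrades retinoic acid, at -0.85 (adjusted p = 0.135 with edgeR) and CRABP2, a retinoic acid binding protein, at -0.51. With DESeq2 the adjusted p was 0.0168 for ALDH16A1, 0.0313 for HAGH and 0.026 for CYP26B1, again at folds below 2.

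AKR1 genes are also known as targets of NRF2, the factor of the antioxidant response. Of 29 NRF2 pathway genes, 17 were higher and 12 lower (median 0.03), and none passed both the adjusted p and the fold of 2 in either tool. TXN, thioredoxin, was at 0.50 and UGDH, which makes UDP-glucuronate, at 0.51 (adjusted p = 0.135 and 0.0948 with edgeR). TXNRD1, thioredoxin reductase, was at -0.46 and EPHX1, an epoxide hydrolase, at -0.51 (adjusted p = 0.135 and 0.123 with edgeR). With DESeq2 the adjusted p of TXN, UGDH, TXNRD1 and EPHX1 was 0.0427, 0.00766, 0.0369 and 0.0282, each under 0.05 at a fold below 2, as for AKR1B1. Members of this list lay on both sides of 0. The part of NRF2 in the AKR1 values was not tested.

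**Figure D5:**
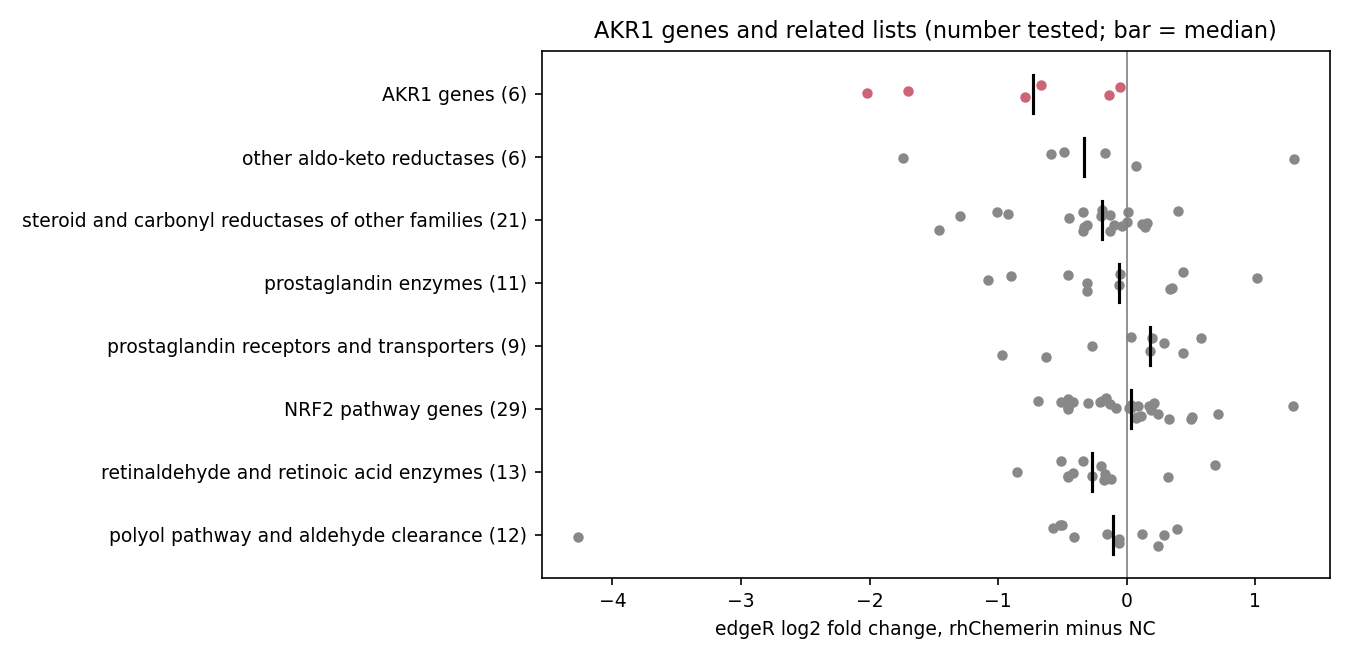
Log2 fold change (edgeR) of each tested gene in the AKR1 family (red) and in 7 related lists (grey), with the number of tested genes after each name and a black bar at the median; the vertical scatter has no meaning. The AKR1 genes have the lowest median of the lists, -0.73, and the single gene beyond -4 is ALDH3A1.

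The genes whose log2 CPM followed each member most closely over the 6 libraries were listed by Pearson correlation, as a description. The points share the libraries and the split into 2 groups. For AKR1C3 they were NECAB3 (0.998) and SULT2B1 (0.997), a sulfotransferase that conjugates cholesterol and other steroids. SULT2B1 was at 1.69, 1.67 and 1.36 FPKM in NC and 0.427, 0.196 and 0.133 in rhChemerin, a log2 fold change of -2.51 (adjusted p = 0.0752 with edgeR and 4.33e-05 with DESeq2). For AKR1B10 they were LLGL2 (0.997) and ZNF641 (0.996), for AKR1B1 ZDHHC23 (0.999) and RHOF (0.997), and for AKR1A1 C18orf32 (0.996) and IGF1R (0.995). For AKR1C1 they were HOXA9 (0.989) and CTRL (0.985), and for AKR1C2 HAAO (0.999) and CATSPERG (0.991). No gene was shared between these lists of 2.

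Of the tested markers, 5 of 8 epithelial, 5 of 8 stromal, 1 of 3 immune and 0 of 3 endothelial genes had a higher estimate with rhChemerin. EPCAM (log2 fold change -1.46) and CDH1 (-1.14) were lower without overlap of the groups, at adjusted p of 0.165 and 0.188 with edgeR and 0.113 and 0.123 with DESeq2. The keratins KRT8 (0.29) and KRT19 (0.27) were higher without overlap on log2 CPM, at adjusted p of 0.201 and 0.209 with edgeR. PDGFRA, a receptor of stromal cells, was at 1.74, 1.37 and 1.54 FPKM in NC and 2.09, 2.09 and 3.10 in rhChemerin (log2 fold change 0.79, adjusted p = 0.124 with edgeR and 0.0202 with DESeq2). ESR2, at most 0.045 FPKM in a library, had a log2 fold change of -1.71 (adjusted p = 0.128 with edgeR). It rested on 15, 15 and 16 counts in NC and 4, 5 and 4 in rhChemerin. The filter on low counts kept EPCAM and ESR2 through their NC libraries. EPCAM, CDH1 and MUC1 (-0.57) thus lay on the same side of 0 as AKR1C3, AKR1B10 and AKR1B1, and the keratins and ELF3 (0.37) on the other. Stromal markers lay on both sides, with PDGFRB at -0.6 and HOXA11 at -0.37 beside PDGFRA and DCN (0.39). Among the markers, 2 genes were called by DESeq2, in the same direction as AKR1C3. CD14, a monocyte gene, was at 51.5, 41.1 and 36.9 FPKM in NC and 21.2, 15.2 and 6.64 in rhChemerin (log2 fold change -1.49, adjusted p = 0.1 with edgeR and 0.000422 with DESeq2). VWF, an endothelial gene, was at 0.508, 0.404 and 0.352 FPKM in NC and 0.189, 0.0718 and 0.0394 in rhChemerin (log2 fold change -1.97, adjusted p = 0.117 with edgeR and 0.00478 with DESeq2). The summed immune markers ranged from 122 to 172 FPKM in NC and from 93.1 to 136 in rhChemerin, and the summed endothelial markers from 1.61 to 2.01 and from 0.991 to 1.41. PTPRC, at 0.026 FPKM over the 6 libraries, and PECAM1, at 0.0176, were near 0, whereas CD68, a gene of lysosomes in macrophages and other cells, ranged from 70.0 to 134 FPKM. Their part in the AKR1 values was not tested.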

How the data were processed

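RNA of 6 libraries of 12Z cells was sequenced (150-base paired ends). Per the labels and methods, the authors trimmed reads with fastp, aligned them with HISAT2 to GRCh38.p13 and counted them per gene with HTSeq. The strand setting, the annotation release and the handling of reads that match several places are not given in the sources used here. The authors deposited raw counts and FPKM of the same 16279 genes. The deposited FPKM equalled the count over a fixed gene length and the library total for 16279 of 16279 genes (within 0.1%). Counts were fitted in R 4.3.3 with edgeR 4.0.16 (TMM, filter on low counts with the group, quasi-likelihood test, Benjamini-Hochberg adjustment over 13311 genes). A gene was called at an adjusted p under 0.05 with a log2 fold change beyond 1 in either direction. The other settings were DESeq2 1.42.0, limma 3.58.1 on the log2 of the FPKM plus 1 or plus 0.1, other scalings and filters, the other edgeR setting, a replicate block and leaving out each library.

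The fits were tested on simulated data. Total counts were 35430881 to 38341643, and intervals on counts cover counting error and the spread between 3 libraries only. Named genes are the 6 members. From each list they are genes called by edgeR or DESeq2 and up to 2 per direction with the smallest edgeR p among those whose groups do not overlap on log2 CPM. For each member they are the 2 genes with the highest correlation. The lists are other aldo-keto reductases, steroid and carbonyl reductases, prostaglandin enzymes, prostaglandin receptors and transporters, NRF2 pathway genes, retinoid enzymes, polyol and aldehyde genes, and markers. The result of 1 listed gene is not reported here. Members and lists were chosen with earlier results of these data known. Transcripts and coordinates came from GENCODE release 29 and promoters from RefSeq (GRCh38.p14).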

Additional observations from a re-analysis of the deposited data

How the results depend on the processing

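The number of genes called was 4 with edgeR, 394 with DESeq2, 33 and 18 with limma on log2(FPKM + 1) and log2(FPKM + 0.1), 12 without a filter, 10 with at least 10 counts in every library and 12 with the other edgeR setting. It ran from 0 to 417 when a library was left out: 417 without rhChemerin replicate 1, 85 without rhChemerin replicate 3 and 0 without each of the others, where 1666 to 2190 genes had an unadjusted p under 0.05. DESeq2 then called 142 to 882. Of the AKR1 genes, 2 were called with DESeq2, 0 to 2 with edgeR and 1 to 2 with DESeq2 when a library was left out. DESeq2 gave -0.67 for AKR1B1, -1.71 for AKR1B10 and -2.03 for AKR1C3, and limma on log2(FPKM + 1) gave -0.78 for AKR1B1 and -0.82 for AKR1C3, each past the adjusted p threshold. On log2(FPKM + 0.1) both missed it (-0.79 and -1.86, adjusted p of 0.0557 and 0.0568). The added 1 shrinks low genes, and AKR1B10 was at -0.46 with it and -1.43 with 0.1. With a library left out, the edgeR log2 fold changes ran from -0.73 to -0.56 (AKR1B1), -2.37 to -1.41 (AKR1B10), -2.42 to -1.84 (AKR1C3), -0.33 to 0.036 (AKR1A1), -0.47 to 0.18 (AKR1C1) and -0.49 to 0.13 (AKR1C1 plus AKR1C2). With DESeq2 they ran from -2.37 to -1.42 (AKR1B10), -0.32 to 0.040 (AKR1A1) and -0.47 to 0.19 (AKR1C1). The changes of sign were in AKR1A1, AKR1C1 and AKR1C1 plus AKR1C2, which passed no test in these fits, and the cause was not tested. Scaling by library size alone moved the median of all genes to -0.12 and kept every AKR1 estimate on its side of 0 and of the threshold.

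Samples with the same replicate number correlated at 0.241, 0.001 and 0.247 in their deviations from the group means. Replicates 1 and 3 correlated best with their own number. The second did not, and NC replicate 2 correlated at 0.106 with rhChemerin replicate 1. The labels do not say whether the numbers pair the libraries, so the main fit took no pairing. With the replicate block, 1 gene was called, and AKR1B1 (-0.66), AKR1B10 (-1.80) and AKR1C3 (-2.07) had adjusted p of 0.0581, 0.0975 and 0.0807. What depth limits is AKR1C2 (5 to 22 counts per library), AKR1B10 (9 to 79) and AKR1C3 (14 to 96).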
